A study of Mus musculus with 12 samples.

Results

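The 10 genes described here encode the beta thymosins Tmsb4x and Tmsb10, the cytoplasmic actins Actb and Actg1, the actin turnover proteins Cfl1 and Pfn1, the tropomyosins Tpm1 and Tpm4, the myosin light chain Myl6 and the intermediate filament protein Vim. They are 10 of the 43472 genes in the deposited table, and all 10 passed the filter on low values. They were chosen by name and selected on their levels by stage and arm in these same 12 libraries, which were known when the set was drawn up. Differences between stages are therefore given as descriptions, and counts of members are printed beside the same count over all genes tested.

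Actin exists as free monomers and as filaments, and cells hold part of it ready as monomers. Beta thymosins bind monomers and keep them out of filaments, profilin (Pfn1) feeds monomers to growing filament ends, and cofilin (Cfl1) cuts and shortens old filaments. Tropomyosins coat filaments and govern which proteins can bind them, and Myl6 is the essential light chain of the non-muscle myosin that pulls on them. In the preimplantation embryo the actin and myosin cortex takes part in compaction, in the sorting of inner from outer cells and in the thinning of the trophectoderm around the cavity.

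All embryos were of the CD1 strain and were injected as zygotes with GFP mRNA, a marker of successful injection, together with an siRNA. The Tdgf1 siRNA groups were morulae, early blastocysts and late blastocysts, and the groups given the negative control siRNA were embryos of the same 3 stages. Tdgf1 encodes Cripto, a co-receptor for Nodal, and the study asked, by its title, how epiblast and primitive endoderm part. There were 2 whole-embryo libraries in each of the 6 groups (n = 2), with a number of embryos not given in the sources used here. Nothing in the labels says that the 2 libraries of a group came from separate embryos or injections, so a p-value covers no more than the scatter between libraries, and that scatter may be technical.

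Library totals were 10524640 to 13770264 reads. Tdgf1 itself had 15.5 and 10.98 CPM (reads of a gene per 1000000 reads) in Tdgf1 siRNA morulae against 29.4 and 23.4 CPM in control morulae. It had 9.27 and 15.2 CPM against 21.7 and 13.1 CPM at early blastocyst, where the library labelled Tdgf1 siRNA replicate 2 was not below its same-numbered control, and 49.5 and 70.8 CPM against 97.3 and 84.6 CPM at late blastocyst. Its log2 difference over the 3 stages was -0.61 (SE 0.16; limma adjusted p = 0.99998 over all genes). Summed levels of 9 trophectoderm markers were 877 to 1238 CPM at morula, 2213 to 4685 CPM at early and 6928 to 9646 CPM at late blastocyst. Within that sum Krt8 was at 148 to 272, 715 to 1665 and 1757 to 2585 CPM over the 3 stages, and Krt18 at 77.2 to 175, 584 to 1477 and 2718 to 4198 CPM. Cdx2 was at 45.6 to 75.1, 57.3 to 184 and 91.6 to 143 CPM. Tfap2c went the other way, at 140 to 166, 110 to 136 and 80.3 to 116 CPM. The sums of 7 epiblast markers were 717 to 1023, 801 to 925 and 277 to 341 CPM at those stages. Within them Nanog was at 286 to 560, 292 to 427 and 80.7 to 115 CPM. Pou5f1, Klf2 and Esrrb were also lower in late blastocysts than in morulae. Sox2 went the other way, at 1.90 to 2.65, 4.14 to 24.8 and 6.17 to 14.8 CPM. Gdf3 was slightly higher in late blastocysts (28.5 to 32.3 CPM) than in morulae (25.9 to 28.4 CPM), and Fgf4 overlapped between these stages. The sums of 7 primitive endoderm markers were 408 to 490, 265 to 321 and 414 to 512 CPM. Within the last sum Gata6 was at 378 to 456, 207 to 260 and 175 to 284 CPM, while Sox17 was at 0 to 0.173, 0.436 to 4.29 and 23.6 to 45.3 CPM and Pdgfra at 3.23 to 8.68, 17.9 to 30.6 and 49.3 to 65.2 CPM. In whole embryos a larger share of a cell type and more RNA per cell of that type cannot be told apart.

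Both thymosins and both actins are pairs of close relatives, so their coding sequences are shown to let a reader judge how far reads can be assigned to each. The thymosin coding sequences (GENCODE M21, GRCm38) are 135 bases long, encode 44 residues, and match at 70.4% of positions. Capitals mark the 40 bases at which they differ, and the longest run they share is 10 bases.
Tmsb4x: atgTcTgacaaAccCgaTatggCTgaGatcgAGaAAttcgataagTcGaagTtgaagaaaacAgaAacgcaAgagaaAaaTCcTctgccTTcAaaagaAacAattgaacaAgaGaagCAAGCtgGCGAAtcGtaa
Tmsb10: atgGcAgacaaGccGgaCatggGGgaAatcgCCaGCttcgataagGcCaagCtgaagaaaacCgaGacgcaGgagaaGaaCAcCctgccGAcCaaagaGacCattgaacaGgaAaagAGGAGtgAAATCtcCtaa

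The actin coding sequences are 1128 bases long and match at 88.7% of positions, with 128 differing bases and a longest shared run of 62. Their first 60 bases, which cover the amino-terminal residues by which the beta and gamma proteins are told apart, hold 9 differences, again in capitals.
Actb: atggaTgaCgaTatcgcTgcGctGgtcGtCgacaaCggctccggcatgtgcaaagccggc
Actg1: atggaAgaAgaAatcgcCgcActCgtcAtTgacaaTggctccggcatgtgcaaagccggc

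Some members have near copies elsewhere in the genome, here meaning another annotated transcript at least 90% identical over at least 100 bases. Tmsb10 has Gm9844, which matches it at 98.8% over 165 bases and held 22.2 to 206 CPM. The ratio of Gm9844 to Tmsb10 stayed between 0.175 and 0.262 in all 12 libraries, so how reads were shared between that pair is uncertain. Cfl1 has Gm6180 (30.7 to 65.1 CPM), Actg1 has Gm8399 (up to 28.9 CPM), and Myl6 has Gm5526 (4.29 to 13.5 CPM). Lrrc58 (up to 100.4 CPM) matches Actb at up to 93.5% and over up to 912 bases. Tpm4 overlaps the antisense gene Gm26586 (9.43 to 54.4 CPM), whose reads could not be separated because strand was not stated. No such copy was found for Tmsb4x, Pfn1, Vim or Tpm1.

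The largest difference in the set was that of Tmsb4x (chrX:167207093-167209315, minus strand, GRCm38), which encodes thymosin beta 4. It was low in morulae and among the 53 most abundant transcripts of every late blastocyst library. Tmsb4x had 10.9 and 5.03 CPM in Tdgf1 siRNA morulae and 3.64 and 5.61 CPM in control morulae, the values of replicates 1 and 2 in that order here and below. At early blastocyst it had 30.7 and 4.21 CPM in Tdgf1 siRNA embryos against 51.3 and 4.65 CPM in controls. In both arms the replicate 2 library was still at the morula level and the replicate 1 library was above it.

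Late blastocysts held 1318 and 1488 CPM of Tmsb4x after Tdgf1 siRNA and 1419 and 1479 CPM after control siRNA, with no overlap with either earlier stage. The mean over arms was 62.8-fold that of early blastocysts and 227-fold that of morulae (1426 ± 78.3 against 22.7 ± 22.7 and 6.29 ± 3.17 CPM, SD over 4 libraries each). The early mean rests on the replicate 1 libraries: without control replicate 1 late blastocysts held 108-fold as much, and against the early replicates 1 and 2 taken separately 34.8-fold and 322-fold. By read number Tmsb4x ranked 46 to 53 among all genes in late blastocysts, with 15096 to 19177 reads, and 7856 to 10120 in morulae, with 39 to 126 reads. On the log2(CPM + 3.582) scale used for the fits, which understates the change of low genes, the late minus morula difference was 7.23 (SE 0.50).

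Tmsb10 (chr6:72957347-72958748, minus strand), which encodes thymosin beta 10, took a more even course. Its levels were 198 and 189 CPM in Tdgf1 siRNA morulae and 127 and 156 CPM in control morulae. At early blastocyst they were 340 and 280 CPM against 328 and 249 CPM, and at late blastocyst 690 and 821 CPM against 733 and 718 CPM. The 3 stages did not overlap, and late blastocysts held 4.42-fold as much as morulae.

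Within a library, the ratio of Tmsb4x to Tmsb10 reads was 0.0266 to 0.0548 in morulae, 0.0151 to 0.156 in early blastocysts and 1.81 to 2.06 in late blastocysts. Tmsb4x thus had more reads than Tmsb10 in all 4 late libraries and fewer in all 8 earlier ones. A ratio within a library does not depend on scaling between libraries, and neither transcript is much longer than the other (864 bases for the longest coding transcript of Tmsb4x and 690 for that of Tmsb10).

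The promoter of Tmsb4x is shown because its stage difference is the widest of the set, and that of Actg1 because it holds the binding motif of serum response factor, a regulator of many actin genes. The stretches run from the start of the RefSeq window (GRCm38.p6) to the base before the annotated gene start, 5′ to 3′ on the gene's strand, at chrX:167209316-167209468 and chr11:120348543-120348745, both minus. Capitals mark the CArG box, the motif of serum response factor.
Tmsb4x: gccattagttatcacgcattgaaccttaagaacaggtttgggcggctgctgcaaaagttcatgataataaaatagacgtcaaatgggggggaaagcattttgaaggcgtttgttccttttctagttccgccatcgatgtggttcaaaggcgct
Actg1: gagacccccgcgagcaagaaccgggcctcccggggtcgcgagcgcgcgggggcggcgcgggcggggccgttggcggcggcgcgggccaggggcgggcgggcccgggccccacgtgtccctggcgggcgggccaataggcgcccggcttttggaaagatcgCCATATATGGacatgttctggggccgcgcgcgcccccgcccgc

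Of the 10 members 9 had a RefSeq promoter window of 300 bases, and Actb had no entry. Windows with a CArG box were found for Actg1 and Myl6, against 1.81% of all 27025 genes with a window. A gene with several windows was counted if any of them held the motif. The Myl6 box was in a window inside the gene (chr10:128492960-128493259), and the window nearer its annotated start had none. The TEAD motif GGAATG on either strand was in the windows of Pfn1 and Tpm1, against 16.58% of genes. The AP-2 motif GCCNNNGGC was in those of Tmsb10, Actg1, Cfl1, Pfn1 and Vim, against 18.55%. For Tmsb10 it was in a window inside the gene (chr6:72958434-72958733) and not in the one across the annotated start. The sequence TATAAA on the gene's strand, which can overlap a CArG box, was in that of Vim, against 9.77%. No window of Tmsb4x held any of the 4, which says only that these letters are not in that window.

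Both actins stood higher at each later stage, and Actb gained on Actg1. Actb (chr5:142903115-142906754, minus strand), which encodes beta actin, had 846 and 852 CPM in Tdgf1 siRNA morulae and 872 and 971 CPM in control morulae. At early blastocyst it had 1675 and 1722 CPM against 1947 and 1725 CPM, and at late blastocyst 2758 and 3290 CPM against 2992 and 3220 CPM. The stages did not overlap, and the mean stood 1.996-fold higher at early blastocyst than at morula and 1.73-fold higher at late than at early blastocyst.

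Actg1 (chr11:120345690-120348542, minus strand), which encodes gamma actin, was the most abundant member by CPM in every library. It had 1833 and 2038 CPM in Tdgf1 siRNA morulae and 1851 and 1968 CPM in control morulae, then 3593 and 2721 CPM against 3099 and 2653 CPM at early blastocyst. Late blastocysts held 4899 and 4146 CPM against 4718 and 4506 CPM. The steps of 1.57-fold and 1.51-fold were smaller than those of Actb. The ratio of Actb to Actg1 was 0.418 to 0.493 in morulae, 0.466 to 0.650 in early and 0.563 to 0.794 in late blastocysts, so that morulae and late blastocysts did not overlap while early blastocysts overlapped both.

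**Figure D1:**
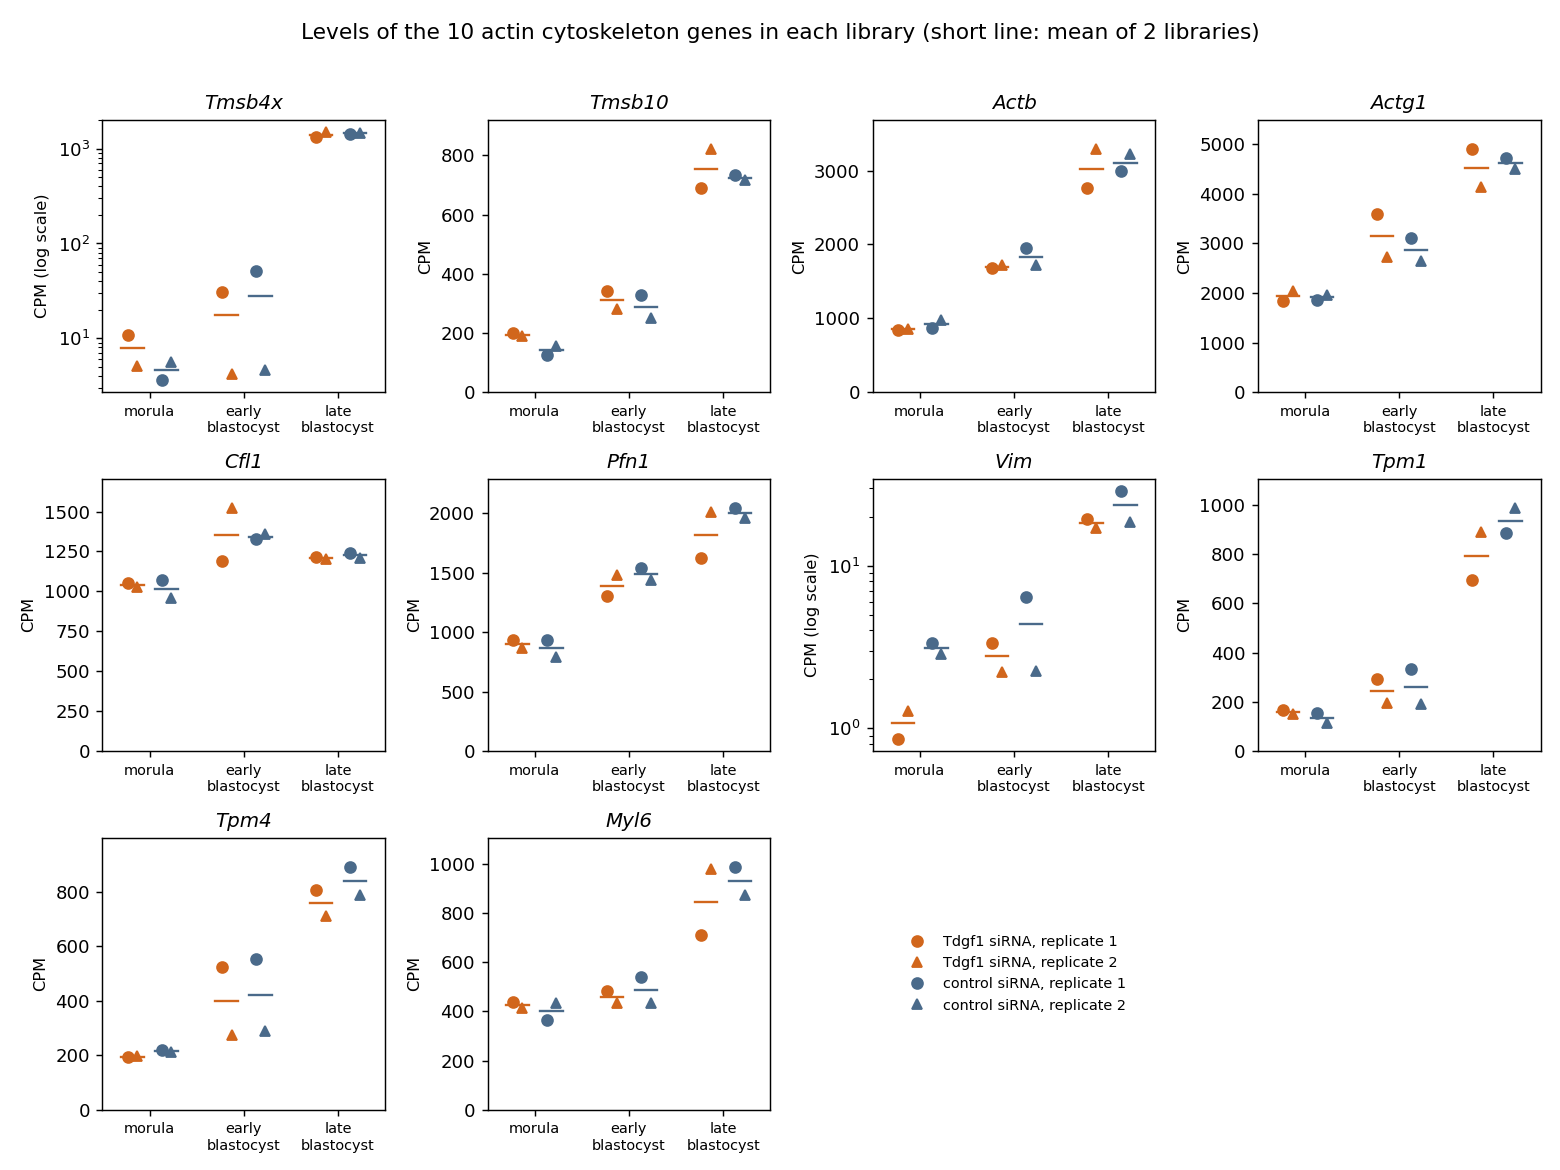
CPM of each of the 10 genes (y axis, from 0 except for Tmsb4x and Vim on log scales) in each of the 12 libraries by stage (x axis), Tdgf1 siRNA in orange left of control siRNA in blue, with circles for replicate 1, triangles for replicate 2 and a short line at the mean of 2 libraries. Tmsb4x sits at 3.64 to 51.3 CPM in the first 2 stages and at 1318 to 1488 CPM in late blastocysts, while Cfl1 stays between 959 and 1522 CPM throughout.

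The turnover proteins took different courses, with Pfn1 higher at each later stage and Cfl1 not. Cfl1 (chr19:5490455-5495201, plus strand), the main non-muscle cofilin, had 1053 and 1028 CPM in Tdgf1 siRNA morulae and 1069 and 959 CPM in control morulae. At early blastocyst it had 1188 and 1522 CPM against 1328 and 1358 CPM, and at late blastocyst 1212 and 1204 CPM against 1242 and 1211 CPM. Late blastocysts lay inside the range of early blastocysts (log2 difference -0.14, SE 0.10, on the CPM scale and 0.062 after quantile normalization) and just above that of morulae.

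Pfn1 (chr11:70651850-70654644, minus strand) encodes profilin 1. Its levels were 932 and 867 CPM in Tdgf1 siRNA morulae and 938 and 792 CPM in control morulae, and 1301 and 1481 CPM against 1538 and 1442 CPM at early blastocyst. Late blastocysts held 1628 and 2008 CPM against 2046 and 1965 CPM, above every earlier library. Within libraries the ratio of Pfn1 to Cfl1 was 0.826 to 0.884, then 0.973 to 1.16, then 1.34 to 1.67 over the 3 stages, with no overlap between stages.

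**Figure D2:**
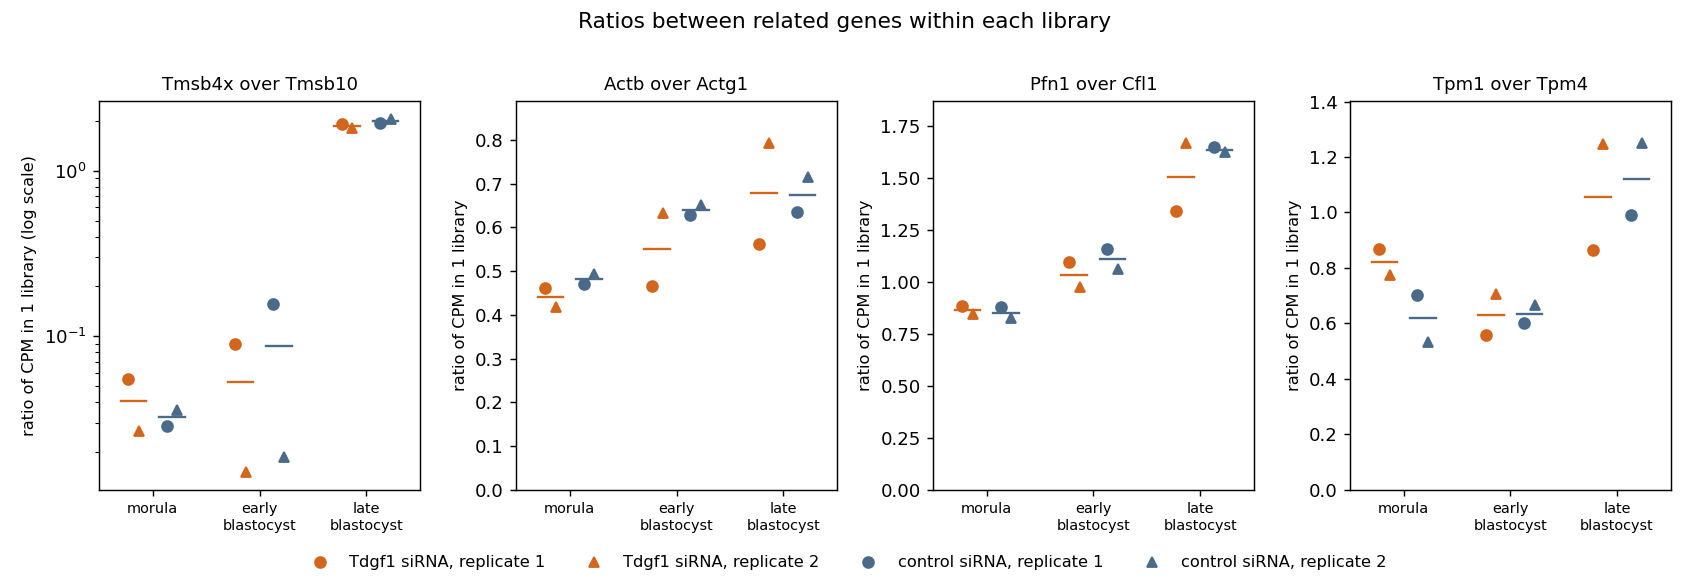
Ratio of CPM between 2 related genes within each library (y axis, log scale for the thymosins, from 0 for the others) by stage (x axis), with Tdgf1 siRNA in orange left of control siRNA in blue and a short line at the mean of 2 libraries. The thymosin ratio is 0.0151 to 0.156 in the first 2 stages and 1.81 to 2.06 in late blastocysts, and the Pfn1 to Cfl1 ratio steps up without overlap between stages.

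Tropomyosins differed most after the early blastocyst stage for Tpm1 and about equally at both steps for Tpm4. Tpm1 (chr9:67022590-67049406, minus strand) had 167 and 151 CPM in Tdgf1 siRNA morulae and 153 and 113 CPM in control morulae. It had 291 and 194 CPM against 332 and 192 CPM at early blastocyst, and 697 and 890 CPM against 884 and 988 CPM at late blastocyst. The late mean was 3.43-fold the early mean, against 1.73-fold for early blastocyst over morula.

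Tpm4 (chr8:72134975-72153142, plus strand) had 192 and 196 CPM in Tdgf1 siRNA morulae against 219 and 212 CPM in control morulae. At early blastocyst its replicate 1 libraries had 523 CPM (Tdgf1 siRNA) and 553 CPM (control), and its replicate 2 libraries 275 CPM (Tdgf1 siRNA) and 288 CPM (control). Late blastocysts held 806 and 713 CPM against 892 and 789 CPM. The stages did not overlap for either tropomyosin. The ratio of Tpm1 to Tpm4 was 0.534 to 0.869 in morulae, 0.557 to 0.705 in early and 0.865 to 1.25 in late blastocysts. Morulae thus overlapped both later stages, while early and late blastocysts did not overlap.

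Myl6 (chr10:128490860-128494145, minus strand) changed little before the late blastocyst. It had 436 and 412 CPM in Tdgf1 siRNA morulae and 365 and 435 CPM in control morulae, and 482 and 435 CPM against 541 and 433 CPM at early blastocyst. These stages overlapped. Late blastocysts held 709 and 977 CPM against 987 and 874 CPM, with no overlap and a mean 1.88-fold that of early blastocysts.

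Vim (chr2:13573927-13582826, plus strand), the intermediate filament protein of mesenchymal and many cultured cells, was by far the scarcest member. It had 0.863 and 1.28 CPM in Tdgf1 siRNA morulae and 3.36 and 2.85 CPM in control morulae, from 10 to 36 reads a library. At early blastocyst it had 3.36 and 2.22 CPM against 6.45 and 2.25 CPM, overlapping the morulae. Late blastocysts held 19.3 and 17.1 CPM against 28.7 and 18.5 CPM, 5.85-fold the early mean and above all earlier libraries.

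Markers of cells that could have come along with the embryos stood beside Vim as follows. Of 12 cumulus and granulosa cell markers 9 were below 1 CPM in every library, Amh, Fshr and Foxl2 among them, and Kitl reached at most 1.22 CPM. The summed level was 30.0 to 41.8 CPM at morula, 22.5 to 49.96 CPM at early and 76.4 to 98.5 CPM at late blastocyst. Within that sum Serpine2 was at 12.9 to 25.3, 7.88 to 27.7 and 70.2 to 91.9 CPM at those stages. Amhr2 went the other way, at 13.4 to 23.2, 11.1 to 21.8 and 3.58 to 6.81 CPM, and was above Vim in morulae. Of 9 fibroblast and reproductive tract markers 5 were below 1 CPM in every library, Col1a2, Col3a1 and Dcn among them, and the sum of 217 to 386, 676 to 1046 and 1431 to 1609 CPM over the stages was mostly Epcam, which the embryo's own epithelium expresses. Of 9 blood cell markers 4 were below 1 CPM in every library, and their sum was 11.2 to 22.9, 11.9 to 46.1 and 12.2 to 28.9 CPM. The part of such cells in the Vim level was not tested.

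Set beside each other per length of the longest coding transcript, Tmsb4x and Cfl1 changed place between stages while the other 8 moved by at most 1 place from morula to late blastocyst. As CPM per kilobase of the longest coding transcript, late blastocysts had Actg1 at 2340 ± 166 and Pfn1 at 2220 ± 223, then Tmsb4x at 1650 ± 90.7 and Actb at 1597 ± 126 (SD over 4 libraries), and the members of each of these pairs did not differ beyond their spread. Tmsb10 followed at 1073 ± 82.1, and Myl6 and Cfl1 at 532 ± 77.4 and 517 ± 7.28, again within their spread. Tpm4 stood at 376 ± 34.5, Tpm1 at 299 ± 42.0 and Vim at 9.53 ± 2.40. Tmsb4x thus stood in place 3 of the 10 in late blastocysts, against place 9 in morulae, where it was at 7.28 ± 3.66. Cfl1 stood in place 7, below Tmsb10, against place 4 in morulae, where it was at 436 ± 20.7 and Tmsb10 at 243 ± 47.5. With the union of exons as the length Actb (1144) came before Tmsb4x (1040), and Pfn1 fell to 795, below both. By that length Actb went from place 4 in morulae to place 2 in late blastocysts, Pfn1 from 2 to 4 and Myl6 from 6 to 8.

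Together the 10 members made up 5600 to 5740 CPM in morulae, 8345 to 9723 CPM in early and 14735 to 15942 CPM in late blastocysts. From morula to early blastocyst 7 of 10 members passed the threshold (limma, adjusted p below 0.05) as higher, where 19.7% of all 10751 genes tested did. The other three, Tmsb4x, Vim and Myl6, had overlapping libraries. From early to late blastocyst 9 of 10 passed as higher, where 27% of all genes did, all but Cfl1, and over the whole span 9 of 10 passed, again all but Cfl1, against 36.6% of all genes. The median log2 difference of the members was 0.73, 0.96 and 1.87 in these comparisons, and that of all genes 0.049, 0.094 and 0.129.

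The last of these medians depended on scaling, being 0.007 with TMM factors and -0.068 after quantile normalization. The split of all calls moved with it, from 3930 higher and 2617 lower genes to 3100 higher and 3551 lower after quantile normalization over the whole span, and from 2901 and 1902 to 2281 and 2589 for late against early blastocyst. No direction of a member that passed changed with scaling. The members' differences followed the stage, as did the trophectoderm marker sums given above. Those sums were mostly Krt8 and Krt18 in blastocysts, and Tfap2c went the other way. The part of the trophectoderm share in the members' differences was not tested.

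The early blastocyst libraries did not stand at the same point in both replicates. Of the 10 members 7 were higher in both replicate 1 libraries than in both replicate 2 libraries, where 41.8% of all genes tested were, and Cfl1 was lower, where 19.2% were. The mean of the replicate 1 libraries over that of the replicate 2 libraries was 9.26 for Tmsb4x, 2.19 for Vim, 1.91 for Tpm4 and 1.61 for Tpm1. It was 1.27 for Tmsb10, 1.25 for Actg1 and 1.18 for Myl6. Actb and Pfn1 overlapped, at 1.05 and 0.971.

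In the same libraries the trophectoderm marker sum was 4459 CPM (Tdgf1 siRNA) and 4685 CPM (control) in replicate 1, and 2377 CPM (Tdgf1 siRNA) and 2213 CPM (control) in replicate 2. On the first principal component of all genes, which held 70.8% of the variance, replicate 1 scored 1.20 (Tdgf1 siRNA) and 6.01 (control) and replicate 2 scored -15.9 (Tdgf1 siRNA) and -20.2 (control), nearer to the morulae (-50.3 to -46.0). The labels give both replicates the same stage, and the part of these marker differences in the members' values was not tested. Without early blastocyst control replicate 2 the Tmsb4x difference between early blastocyst and morula was 1.65 on the log2 scale and passed (limma adjusted p = 0.00382), against 0.97 and adjusted p = 0.151 with all libraries. Without Tdgf1 siRNA replicate 2 it was 1.5 and passed (limma adjusted p = 0.0263), and over all single libraries left out it ranged from 0.28 to 1.65. With edgeR on the recovered reads it was 1.76 (adjusted p = 0.0488).

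**Figure D3:**
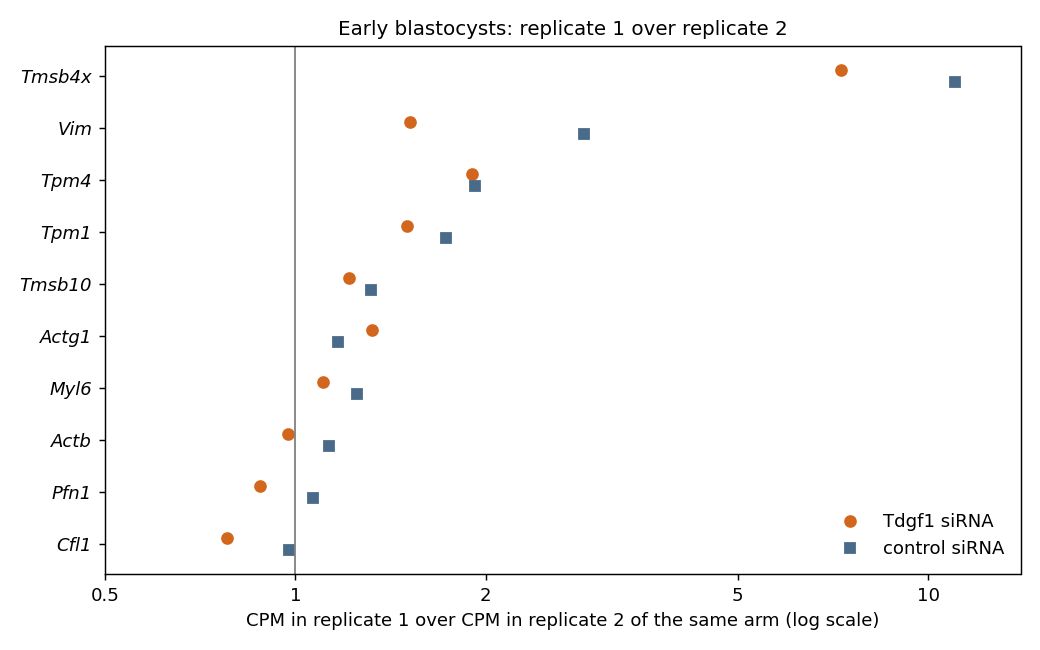
CPM in the early blastocyst replicate 1 library over that in the replicate 2 library of the same arm (x axis, log scale) for the 10 members (y axis), Tdgf1 siRNA as orange circles above control siRNA as blue squares, with a line at a ratio of 1. Tmsb4x stands at 7.29 (Tdgf1 siRNA) and 11.05 (control), the other members between 0.781 and 2.86.

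No member passed in a comparison of Tdgf1 siRNA with control embryos. With limma 0 of 10 members and 0% of all 10751 genes passed at morula, at early blastocyst, at late blastocyst, over the mean of the 3 stages and for a difference of the siRNA effect between stages. At an unadjusted p under 0.05 there were 194, 112, 221, 268 and 97 genes in these comparisons. That fit leaves out any pairing of libraries. With same-numbered libraries paired as a block there were 663, 491, 697, 916 and 475 genes, and 5, 5, 3, 0 and 1 passed after adjustment, none of them a member. With edgeR 0 genes passed in each, and with DESeq2 1 gene passed at late blastocyst and 1 for the difference between stages, neither of them a member.

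Of the members, Tmsb10 at morula was the only one with an unadjusted p under 0.05 at a single stage in the unpaired fit, where 1.8% of all genes at morula had one. Its 198 and 189 CPM after Tdgf1 siRNA did not overlap the 127 and 156 CPM of controls (log2 difference 0.45, SE 0.17; limma unadjusted p = 0.0198, adjusted p = 0.99995), as was so for 15.5% of all genes on the higher side. Its near copy Gm9844 had 44.2 and 44.7 CPM against 22.2 and 36.5 CPM. Tmsb10 was higher after Tdgf1 siRNA in 5 of 6 same-numbered pairs, where 15.6% of all genes were higher in 5 or 6, with a mean log2 difference over stages of 0.21 (SE 0.10; 95% interval -0.008 to 0.42; limma adjusted p = 0.99998). With the pairs as a block that interval was 0.051 to 0.36, and Tmsb10 did not pass after adjustment there either.

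Vim was lower after Tdgf1 siRNA in 6 of 6 pairs, with a mean log2 difference of -0.36 (SE 0.16; limma unadjusted p = 0.0432, adjusted p = 0.99998), where 2.49% of all genes had an unadjusted p under 0.05. The size depended on the pseudocount and the tool: the mean was -0.69 with a pseudocount of 0.1 deposited units, -0.86 with DESeq2 and -0.85 with edgeR, and at morula -0.52 became -1.29, -1.56 and -1.55, none passing after adjustment. The groups did not overlap at morula, where Vim rested on 10 and 14 reads after Tdgf1 siRNA and 36 and 30 reads in controls. Tpm4 was also lower in 6 of 6 pairs, by smaller amounts (mean log2 difference -0.12, SE 0.16), and Actb in 5 of 6 (-0.089, SE 0.086). Of all genes 1.79% were lower in 6 of 6 pairs and 12% in 5 or 6. At morula Actb, Vim and Tpm4 were lower without overlap, where 12% of all genes were, and at early blastocyst Actb was, where 10% were.

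For the other 6 members the 95% intervals of the mean log2 difference were -0.87 to 0.88 for Tmsb4x, -0.18 to 0.25 for Actg1 and -0.18 to 0.19 for Cfl1. They were -0.26 to 0.13 for Pfn1, -0.33 to 0.29 for Tpm1 and -0.27 to 0.17 for Myl6. For Actb the interval was -0.27 to 0.095, and as folds the bounds of the actins, Cfl1 and Pfn1 lay between 0.827 (Actb) and 1.19 (Actg1). The interval of Tmsb4x at a single stage was far wider, for example -1.56 to 1.46 at late blastocyst, although its late libraries lay within 1318 to 1488 CPM. The fit uses 1 spread per gene over all stages and no pairing, and the early blastocyst libraries of Tmsb4x spread from 4.21 to 51.3 CPM. With the pairs as a block the Tmsb4x interval was -0.25 to 0.26 over the mean of stages and -0.49 to 0.39 at late blastocyst. It was 0.015 to 0.89 at morula and -0.82 to 0.06 at early blastocyst. Block intervals at morula also left out 0 for Tmsb10 (0.19 to 0.72), Tpm1 (0.007 to 0.53) and Vim (-1.001 to -0.046). For Vim over the mean of stages it was -0.64 to -0.087. At morula 663 of all 10751 genes had an unadjusted p under 0.05 with the block, and no member passed after adjustment.

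**Figure D4:**
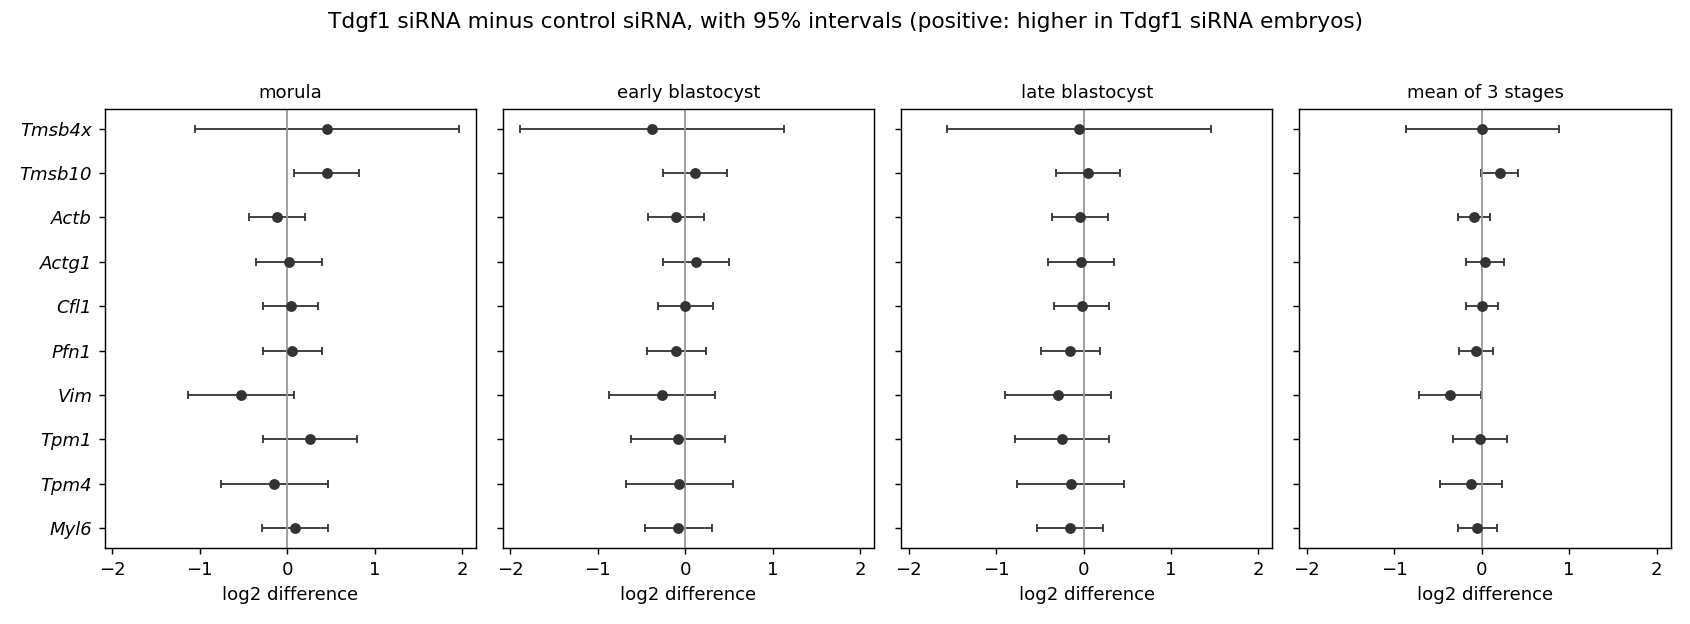
Log2 difference of Tdgf1 siRNA minus control siRNA (x axis; positive is higher in Tdgf1 siRNA embryos) for the 10 members (y axis) at each stage and over the mean of 3 stages, with points for the limma estimate and bars for its 95% interval. Intervals cover 0 except for Tmsb10 at morula and Vim over the mean of 3 stages, and neither passed after adjustment over all genes.

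The wider actin machinery was read from 116 other genes in 10 lists, of which 79 passed the filter on low values. None passed in an siRNA comparison, at any stage or over their mean. From morula to early blastocyst 38 of the 79 were higher and 3 lower, where 19.7% of all genes were higher and 14% lower. From early to late blastocyst 49 were higher and 4 lower, where 27% and 17.7% were, and over the whole span 58 were higher and 4 lower, where 36.6% and 24.3% were. Their median log2 difference over the whole span was 0.98, against 0.129 for all genes.

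None of the 5 muscle and other tissue actins (Acta1, Acta2, Actc1, Actg2 and Actbl2) reached the filter. Among monomer-binding and depolymerising proteins 8 of 10 tested were higher in late blastocysts than in morulae and 1, Cfl2, was lower. Wdr1, which helps cofilin take filaments apart, stood at 302 ± 31.9 CPM in late blastocysts against 31.8 ± 3.74 CPM in morulae (SD, 4 libraries each; log2 difference 3.11, SE 0.22; limma adjusted p = 1.05e-07). Dstn, the sister protein of cofilin, stood at 874 ± 156 CPM in late against 296 ± 33.8 CPM in early blastocysts (1.54, SE 0.14; limma adjusted p = 2.95e-06). Pfn2, a relative of Pfn1, was lower in late than in early blastocysts (5.91 ± 1.47 against 12.4 ± 3.32 CPM; limma adjusted p = 0.00841).

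All 10 genes listed for the Arp2/3 complex, which starts filament branches, were tested (paralogues of its subunits included), and 8 were higher in late blastocysts than in morulae and 0 lower. Arpc2 stood at 1182 ± 116 CPM in late blastocysts against 245 ± 15.1 CPM in morulae (2.25, SE 0.12; limma adjusted p = 1.51e-08). Of the formins and nucleation promoters 8 of 17 were higher, where 36.6% of all genes were, 1 was lower and 8 did not pass, and the formin Fmnl2 stood at 161 ± 17.1 CPM against 28.9 ± 4.601 CPM (2.35, SE 0.21; limma adjusted p = 7.68e-07). Of the capping and severing proteins 7 of 8 were higher, and Capg, which caps filament ends, stood at 217 ± 42.7 CPM in late blastocysts against 8.12 ± 4.81 CPM in morulae (4.32, SE 0.31; limma adjusted p = 1.10e-07).

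Among bundling and cross-linking proteins 10 of 12 were higher over the whole span. Lcp1, known as plastin 2 of blood cells, stood at 397 ± 85.3 CPM in late blastocysts against 7.72 ± 1.80 CPM in morulae (5.14, SE 0.26; limma adjusted p = 9.04e-09). Of the blood cell markers, Laptm5 was at 8.64 to 21.3 CPM in late blastocysts against 0.0863 to 0.747 CPM in morulae, and Ptprc at 0 to 1.01 against 0 to 0.183 CPM. Others went the other way, with Cd74 at 1.16 to 8.65 against 7.33 to 18.5 CPM and Hba-a1 at 0.265 to 0.873 against 1.31 to 3.88 CPM. The part of blood cells in the Lcp1 level was not tested. Of the membrane linkers 9 of 10 were higher, with moesin (Msn) at 381 ± 77.2 against 19.5 ± 6.53 CPM (4.09, SE 0.34; limma adjusted p = 3.45e-07). Enah, which extends filaments at the membrane, was the 1 that was lower, at 192 ± 34.6 against 451 ± 62.3 CPM (-1.23, SE 0.14; limma adjusted p = 5.09e-06).

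Of the non-muscle myosin II genes 4 of 6 were higher and 1 lower, and the regulatory light chain Myl12a stood at 595 ± 33.4 CPM in late blastocysts against 209 ± 4.93 CPM in morulae (1.49, SE 0.12; limma adjusted p = 2.24e-07). Of the other tropomyosins Tpm2 and Tpm3, 1 passed as higher: Tpm3 stood at 943 ± 75.6 against 474 ± 68.6 CPM (0.99, SE 0.12; limma adjusted p = 7.42e-06). Of 4 tested genes of other intermediate filaments 3 were higher and 0 lower, and the nuclear lamina gene Lmna stood at 184 ± 19.8 against 42.8 ± 3.90 CPM (2.01, SE 0.15; limma adjusted p = 1.56e-07).

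**Figure D5:**
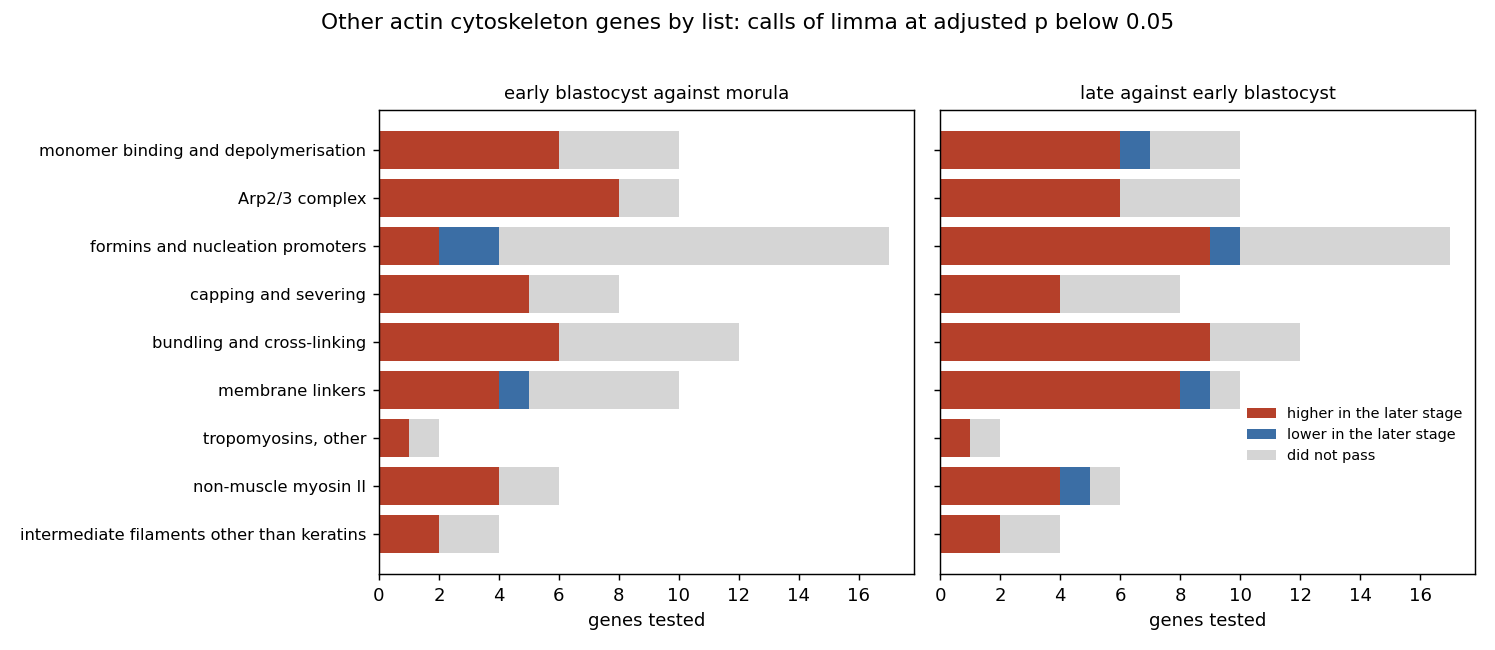
Number of genes tested (x axis) in each of the 9 lists of other actin cytoskeleton genes with a tested member (y axis), for early blastocyst against morula and late against early blastocyst, in red for genes that passed as higher in the later stage, blue for lower and grey for those that did not pass. Over these lists 38 genes are red and 3 blue in the first comparison and 49 red and 4 blue in the second.

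Genes outside the set whose levels ran most like those of a member were ranked by Pearson correlation of log2(CPM + 3.582) over the 12 libraries, among 10741 genes. The libraries share stages and replicate numbers, so the values are descriptions. Closest to Tmsb4x were Erf (r = 0.993), Kdelc2 (0.993) and Slc15a2 (0.992), which stood at 16.9, 21.7 and 309 CPM in late blastocysts against 3.96, 0.562 and 0.818 CPM in morulae. Closest to Tmsb10 were Kank1 (0.991), Pak6 (0.990) and Sh3bp1 (0.990), to Actb Lgals1 (0.997), Atp5g2 (0.994) and Cyc1 (0.991), and to Vim Tmem62 (0.986), Rpa3 (0.984) and Ikbkb (0.981). Among members, Tmsb4x ran most like Tpm1 by Pearson correlation (0.977) and most like Myl6 by Spearman correlation (0.930, against 0.825 for Tpm1), and least like Cfl1 by both (0.176 and 0.0769).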

How the data were processed

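RNA-seq libraries of whole mouse embryos, made with a kit that amplifies full-length cDNA, were analysed from 1 table. Tools named in the submitters' processing notes, without role or order, are Cufflinks, edgeR, HTSeq and HISAT2 version 2.1.0, with mm10 (GRCm38) as the build. Strand was not given in the sources used here. Columns that the authors deposited are headed RPKM per the file headers, but values were whole multiples of a step that did not depend on gene length (100.0% whole within 0.01 reads) and every column summed to 279173.646, so the deposited values are CPM divided by 3.582, and levels here were multiplied back to CPM. The steps gave whole reads, 10524640 to 13770264 per library, so the 3 reads that a count of 0 still allows came to 0.218 to 0.285 CPM. That limit covers counting error only, since reads amplified without molecular identifiers do not stand for independent molecules. Replicates differed by more than sampling noise (chi-square per gene 17.0 to 41.1).

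limma 3.58.1 (trend) in R 4.3.3 was fitted to log2 of the deposited value plus 1, which is a pseudocount of 3.582 CPM, over 10751 genes with a mean of at least 1 unit, with 6 group means, 6 residual and 7.55 prior degrees of freedom, and Benjamini-Hochberg adjustment within each comparison at 0.05. The design had assumed RPKM, and the same test was kept. It was also run on simulated counts drawn independently for each library. That run does not show how the test behaves where same-numbered libraries deviate together. edgeR 4.0.16 and DESeq2 1.42.0 on the recovered counts, TMM factors, quantile normalization, a pseudocount of 0.1, other filters and leaving out each library were alternatives. Stage differences average both arms.

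Deviations of same-numbered libraries from their group means correlated at 0.458, 0.593 and 0.101 at the 3 stages. Same-numbered libraries were therefore taken as pairs for the pair counts and the block, on the data alone, since no label gives a shared day. With 2 libraries in a group such a correlation can arise without a shared origin, and at late blastocyst it was weak. Printed errors and p-values come from the unpaired fit unless the block is named. Coordinates and lengths are from GENCODE M21 (GRCm38), copies were found with blastn 2.17.0, and promoters are from RefSeq. Python 3.11.15, pandas 2.3.3 and matplotlib 3.10.9 were used.

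All members are described. Of each other list, up to 2 higher and 2 lower genes with the smallest p were eligible for naming. One planned gene list is not reported here. Members, lists and markers were chosen with earlier results of these data known.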

Additional observations from a re-analysis of the deposited data

How the results depend on the processing

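No count of members past the threshold in a comparison moved by more than 1.5 times under any alternative: 0 in every siRNA comparison, and 6 to 8, 8 to 9 and 8 to 10 for the 3 stage comparisons. With same-numbered pairs as a block, 0 members passed at morula, early and late blastocyst, over their mean and between stages, although 5, 5, 3, 0 and 1 of all genes did, against 0 without it. With the replicate number as a block for stage differences 7, 9 and 9 members passed, as without it, and the block changed no other member's call. Signs of small siRNA differences were not stable: over the 3 stages Tmsb4x was -0.0042 with DESeq2 and -0.0014 with TMM factors, and Cfl1 was -0.011 with DESeq2, -0.008 with TMM factors and -0.0026 with edgeR, against 0.008 and 0.007. Leaving out 1 library at a time, the mean over stages ranged from -0.45 to 0.46 for Tmsb4x, -0.03 to 0.1 for Actg1, -0.053 to 0.066 for Cfl1, -0.15 to 0.11 for Tpm1, -0.28 to 0.035 for Tpm4 and -0.13 to 0.028 for Myl6. At early blastocyst it ranged from -0.088 to 0.31 for Tmsb10, -0.66 to 0.12 for Vim and -0.54 to 0.4 for Tpm4, and at late blastocyst from -0.071 to 0.18 for Tmsb10. Cfl1 for late minus early blastocyst was 0.062 after quantile normalization. The ratio of Tmsb4x to Actb per kilobase in late blastocysts was 0.048 on the log2 scale by the longest transcript and -0.14 by the union of exons.

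Calls of single members that changed were Tmsb4x for early blastocyst minus morula with edgeR (1.76, adjusted p = 0.0488), Cfl1 there with TMM factors (0.34, adjusted p = 0.055), Tpm1 there with no filter (0.75, adjusted p = 0.06), Pfn1 for late minus early blastocyst with TMM factors (0.31, adjusted p = 0.0624) and edgeR (0.31, adjusted p = 0.0585), and Cfl1 for late blastocyst minus morula after quantile normalization (0.53, adjusted p = 0.00034). Leaving out 1 library also moved the calls of Tmsb4x (above), of Pfn1 without late blastocyst Tdgf1 siRNA replicate 2 (0.33, adjusted p = 0.0506) and of Cfl1 for the whole span without either early blastocyst Tdgf1 siRNA library (0.25, adjusted p = 0.0282 and 0.0285). With a filter at 5 units Vim was not among the genes tested. Of the 79 other actin genes, the 3 called lower for early blastocyst minus morula were 0 to 5 over the alternatives, the 4 for late minus early blastocyst 1 to 6 and the 4 for the whole span 2 to 8. Ranked by Spearman correlation, 1 of the 12 nearest genes, Erf, stayed among the first 3. The cause of these changes was not tested. Depth limits Vim most, which in morulae rests on 10 to 36 reads.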
